A study of Mus musculus with 39 samples.

Results

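The comparison covers 8 of the 39 arrays of the series, chosen by their titles alone: 4 arrays of wild-type rod precursors at embryonic day 16 (wt E16) and 4 at postnatal day 2 (wt P2). RNA was measured on Affymetrix mouse expression arrays in retinal cells that glowed with green fluorescent protein (GFP) and were purified by flow sorting. In these wt mice the Nrl promoter drives GFP, so the sort itself selects cells in which that rod promoter is active. The transgenic wt line was also crossed into mice without Nrl (ko), which the report uses at the same ages (3 arrays of ko E16 and 4 of ko P2), and 4 wt arrays at postnatal day 6 (wt P6) are set beside the main step. How many animals gave an array, and whether each array had its own animals, is not in the labels, so the p-values measure the spread between arrays, which may be technical.

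Rods are the photoreceptors of dim light, and in the mouse retina they leave the cell cycle from before birth until about a week after it. The transcription factor Nrl, together with the homeodomain factors Crx and Otx2, directs a postmitotic precursor to the rod fate, and a precursor without Nrl becomes a cone-like cell. A newborn precursor switches on the rod signalling chain, in which light signals through transducin (Gnat1) to a phosphodiesterase (Pde6a, Pde6b, Pde6g) that closes a cation channel (Cnga1, Cngb1), while arrestin (Sag) ends the signal. Ganglion cells, horizontal cells and cones are born before most rods, so an embryonic retina holds many more newborn neurons of these other classes.

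From E16 to P2, 3 of 18 measured rod genes rose, while 4 of 17 cone genes, 6 of 22 amacrine, horizontal and ganglion cell markers and 8 of 17 cholesterol synthesis genes fell. Of 18193 genes, 722 (3.97%) were called in limma at an adjusted p under 0.05. Of these, 200 (1.1%) were higher and 522 (2.87%) lower at P2. At a difference of 2-fold or more, the called genes were 27 higher and 268 lower. All differences are wt P2 minus wt E16 on the log2 scale, and the median over all genes was 0.09. Over the 9139 genes that the authors' detection calls list as present at 1 or both stages, it was -0.34. At an unadjusted p under 0.05 there were 7158 genes. The 4 arrays of one stage did not overlap the 4 of the other in 39.4% of all genes and in 617 of the 722 called genes. The called genes were chosen for a difference between these same arrays, so a higher share among them follows from that choice.

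The 8 arrays differed between the stages in more than single genes. The spread of log2 values within an array (SD over probe sets) was between 1.66 and 1.80 at E16 and between 1.48 and 1.59 at P2, with no overlap (exact two-sided permutation p = 0.0286, the smallest that 4 against 4 arrays allow). Of 4 equal groups of genes by level, the brightest had a median difference of -0.44 and the dimmest one of 0.21. After quantile normalization 403 genes were called, of which 336 were among the 722, and after scaling every array to the same median and spread 449 were called, of which 390 were among the 722. The share of called genes that were higher was 27.7% as deposited, 23.8% after quantile normalization and 15.6% after scaling. This balance turned in some fits with more calls. In a fit of the 8 arrays alone 55.6% of 7017 calls were higher, and with those arrays quantile normalized together 65.4% of 4176. It did not turn with the replicate number as a block in the 8 arrays (23.6% of 2328 calls higher). Nor did it turn without wt E16 replicate 2 (35.7% of 1485). The signal ratio of the 3' to the 5' end of Actb, a measure of RNA quality, was 2.18 ± 0.14 at E16 and 1.70 ± 0.19 at P2 (log2, mean ± SD, n = 4 each; exact permutation p = 0.0286). The same measure of Gapdh went the other way, 1.72 ± 0.25 at E16 and 2.56 ± 0.65 at P2 (exact permutation p = 0.114). The part of array spread and RNA quality in the calls was not tested. The authors' detection calls, given once per stage, listed 8662 genes as present at E16 and 7380 at P2. Where a stage was called absent, the level there lies at background by those calls and no fold is given below. A log2 difference against such a stage is one of measured signals and can understate the change. Where rises or falls are called largest below, this is by measured difference and gives no order of the true changes.

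**Figure D1:**
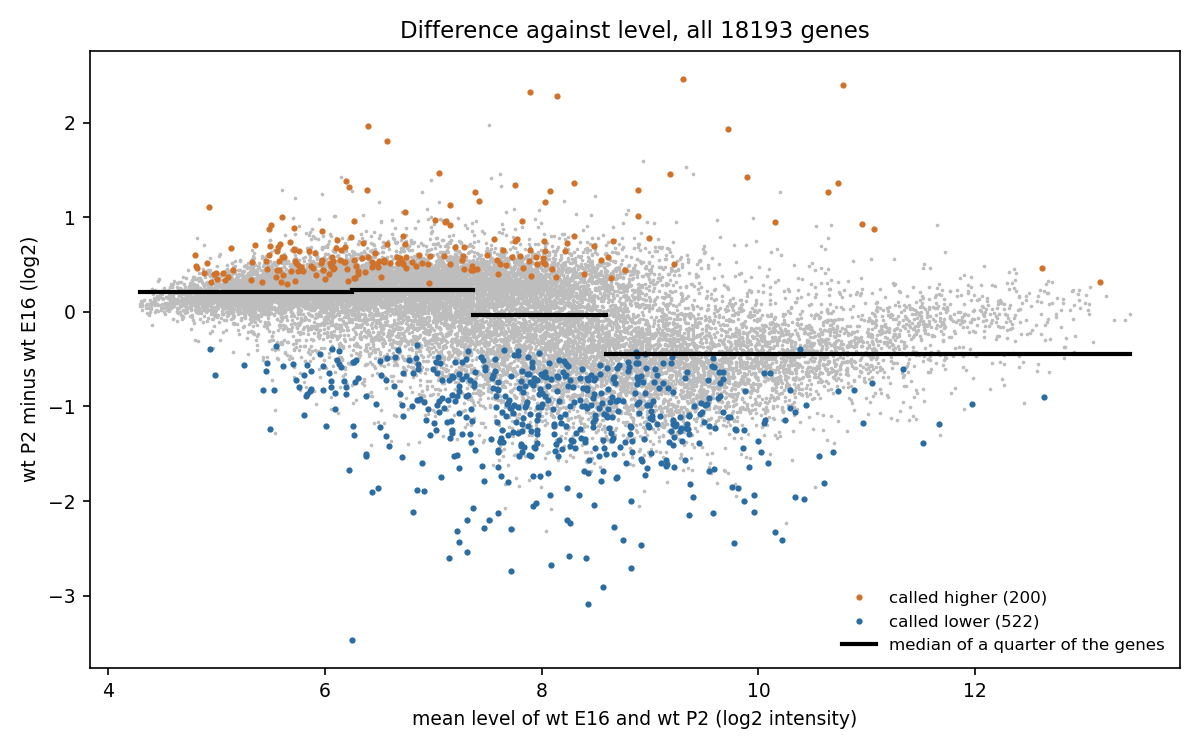
Difference between wt P2 and wt E16 (log2, vertical axis) against the mean level of both stages (log2 intensity, horizontal axis) for 18193 genes, with the 200 genes called higher in orange, the 522 called lower in blue and the others in grey. Black bars give the median of each of 4 equal groups of genes by level, from 0.21 in the dimmest to -0.44 in the brightest. The lowest point, at -3.47, is an unnamed clone.

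Arrays of one stage were not alike in every respect. Correlations over all probe sets were between 0.966 and 0.992 within wt E16 and between 0.951 and 0.977 within wt P2, against 0.893 to 0.975 between the stages. In wt P2 replicate 1 the mean level of the amacrine, horizontal and ganglion cell list was 7.13, against 7.80 to 7.89 in the other 3 P2 arrays. In wt E16 replicate 4 the mean level of the rod list was 8.14, against 7.29 to 7.65 in the other 3 E16 arrays. In wt E16 replicate 1 some lens crystallins lay at the P2 level. Leaving out wt E16 replicate 1 left 128 calls, leaving out wt E16 replicate 3 left 214, and leaving out wt P2 replicate 1 or replicate 4 left 203 or 211. Without wt E16 replicate 2, by contrast, there were 1485 calls. Of the 722 genes, 118 (13 higher and 105 lower) were called in each of the 8 fits that left out 1 of these arrays.

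The sorted cells carried the transcripts of the photoreceptor lineage at both ages. Crx lay at 11.62, 11.40, 11.75 and 11.70 at E16 and at 11.78, 11.41, 11.32 and 10.93 at P2, a difference of -0.26 with adjusted p = 0.47. Its arrays overlapped, and after scaling the difference was 0.17. Otx2, which acts upstream of Crx, lay at 12.41, 12.70, 12.48 and 12.40 at E16 and at 12.83, 11.84, 11.82 and 11.37 at P2, with adjusted p = 0.189. Nrl itself lay at 9.08, 8.76, 9.80 and 10.61 at E16 and at 11.56, 10.61, 11.39 and 9.77 at P2. The mean of Nrl was 1.27 higher at P2, but its arrays overlapped and it was not called (adjusted p = 0.0786). Without wt E16 replicate 4, which had the most Nrl of its group, the difference of Nrl was 1.62 with adjusted p = 0.059. Nr2e3 was not analysed here.

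Rod genes were higher at P2 on average, and 3 of them passed the test. All 18 measured members of the rod list had a difference above 0, where 57.1% of all genes did, with a median of 0.58 against 0.09 for all genes. Only 7 of the 18 were called present at E16, and in the 2 dimmest of the 4 level groups 88.8% and 74.5% of genes lay above 0, as did 13 of 13 microglia markers. The rod list's median was 0.69 after quantile normalization and 0.67 after scaling. Sag, the rod arrestin, lay at 7.54, 7.48, 7.79 and 9.46 at E16 and at 11.79, 9.997, 10.96 and 9.38 at P2. The arrays of Sag overlapped because wt E16 replicate 4 stood above one P2 array, and the mean difference of 2.46 ± 0.45 (SE) was called (adjusted p = 0.00141), as it was without that array (2.93, adjusted p = 0.000129). Pde6b, the beta subunit of the rod phosphodiesterase, lay at 6.55, 6.36, 6.83 and 8.26 at E16 and at 9.48, 9.53, 9.69 and 8.46 at P2. The groups of Pde6b did not overlap, and it rose by 2.29 ± 0.31 (adjusted p = 2.71e-05). Samd7, which in mouse rods recruits a silencing complex to non-rod genes, lay at 7.47, 8.36, 8.96 and 10.23 at E16 and at 11.56, 10.24, 10.50 and 10.47 at P2. The highest E16 array of Samd7 reached just below the lowest P2 array, and the rise was 1.93 ± 0.31 (adjusted p = 0.000346), or 3.82-fold. Sag and Pde6b were called absent at E16 and present at P2.

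The other parts of the rod signalling chain had smaller differences that did not pass. The alpha subunit of rod transducin, Gnat1, differed by 0.53 (adjusted p = 0.173) and its gamma partner Gngt1 by 0.78 (adjusted p = 0.0601). The channel subunits Cnga1 and Cngb1 differed by 0.75 (adjusted p = 0.0861) and 0.96 (adjusted p = 0.0771), and recoverin (Rcvrn) by 1.27 (adjusted p = 0.0524), with all 3 called absent at both stages. The other phosphodiesterase subunits, Pde6a and Pde6g, differed by 0.31 and 0.63. Sag, Pde6b and Samd7 were called whichever single array was left out.

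Few genes that rods and cones share were called. Of 22 measured genes of the outer segment and shared photoreceptor functions, 1 was higher and 1 lower, with a median of 0.23. Rp1, a microtubule protein of the outer segment, lay at 7.67, 8.05, 8.56 and 9.51 at E16 and at 10.79, 9.98, 9.38 and 9.49 at P2. Its groups overlapped, and the rise of Rp1 by 1.46 ± 0.34 (adjusted p = 0.0143) was not called without wt E16 replicate 1 or without wt P2 replicate 1. Isl2, a LIM homeodomain factor, was the member that fell, by 0.94 ± 0.13 (adjusted p = 5.99e-05), from 7.53 to 6.59. Of 25 genes of cilium transport, 0 were called in limma (4 at an unadjusted p under 0.05, and 5 called in a fit of the 8 arrays alone), and the median was -0.29 (0.08 after quantile normalization). Among genes called present at 1 or both stages, the median of the cilium list was -0.40, against -0.34 for all such genes. The structural proteins of the outer segment disc, Prph2 and Rom1, differed by 0.22 and 0.91 and were not called.

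The start regions of the 3 called rod genes are shown with the cone gene Gnat2, to let the short DNA words bound by Crx and Nrl be read beside the measured changes. Each run holds the 250 bases before a RefSeq transcript start (build GRCm38.p6), read 5′ to 3′ on the gene's strand. Capitals mark TAATCC, the core of the sites that Crx binds, and TGCTGA, a core of the sites that Nrl binds, searched on both strands. Sag lies at chr1:87803430-87803679 on the plus strand, Pde6b at chr5:108388123-108388372 on the plus strand, Samd7 at chr3:30746043-30746292 on the plus strand and Gnat2 at chr3:108092816-108093065 on the plus strand.
Sag: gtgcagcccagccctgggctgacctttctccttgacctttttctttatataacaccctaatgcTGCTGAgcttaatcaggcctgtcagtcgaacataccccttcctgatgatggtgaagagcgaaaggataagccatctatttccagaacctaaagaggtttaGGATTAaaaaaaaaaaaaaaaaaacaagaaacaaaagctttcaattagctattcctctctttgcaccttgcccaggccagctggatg
Pde6b: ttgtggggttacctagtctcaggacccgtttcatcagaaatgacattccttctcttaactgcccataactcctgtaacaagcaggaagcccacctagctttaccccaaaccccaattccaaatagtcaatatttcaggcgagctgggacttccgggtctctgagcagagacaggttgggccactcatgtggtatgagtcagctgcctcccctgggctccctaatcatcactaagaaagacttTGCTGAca
Samd7: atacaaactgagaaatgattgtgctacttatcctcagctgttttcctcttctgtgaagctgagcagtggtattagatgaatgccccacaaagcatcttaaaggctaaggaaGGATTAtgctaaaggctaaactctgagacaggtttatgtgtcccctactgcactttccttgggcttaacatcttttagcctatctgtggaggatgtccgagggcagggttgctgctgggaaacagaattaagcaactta
Gnat2: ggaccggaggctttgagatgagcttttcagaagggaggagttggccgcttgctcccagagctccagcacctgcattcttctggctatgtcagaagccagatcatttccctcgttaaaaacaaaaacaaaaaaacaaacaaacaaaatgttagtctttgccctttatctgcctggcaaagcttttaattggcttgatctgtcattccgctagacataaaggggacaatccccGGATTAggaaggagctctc
The Crx word began 87 bases before the start of Sag, 139 before that of Samd7 and 19 before that of Gnat2, each on the opposite strand. The Nrl word began 187 bases before the start of Sag and 8 before that of Pde6b, on the gene's strand. The Crx word was in 6 of 13 windows of the rod list (46.2%), in 4 of 19 windows of the cone list (21.1%) and in 6.25% of 32851 windows of the mouse table. Among all genes called higher the share of windows with it was 5.75% and among those called lower 3.46%. The Nrl word was in 3 of 13 rod windows (23.1%) and in 16.1% of all windows. The Crx word occurred beside genes that rose and beside a gene that fell, and a match is a description of letters, not of binding.

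Outside the rod list, the largest rises were in genes of varied function. Lrp4, a cell surface receptor known from nerve-muscle synapses, lay at 8.66, 8.65, 10.11 and 10.93 at E16 and at 12.09, 12.00, 11.79 and 12.05 at P2. Lrp4 was spread over more than 2 log2 units at E16 and closely grouped at P2, and its rise was 2.39 ± 0.52 (adjusted p = 0.00756), or 5.26-fold. Without wt E16 replicate 1 Lrp4 was not called (adjusted p = 0.0705). Pax7, a paired homeodomain factor best known from muscle stem cells, lay at 5.16, 5.25, 5.59 and 5.66 at E16 and at 7.64, 7.67, 7.64 and 6.59 at P2. The groups of Pax7 did not overlap, it passed from absent to present, and it rose by 1.97 ± 0.24 (adjusted p = 7.31e-06). Nt5e, a surface enzyme that makes adenosine and marks photoreceptor precursors in the mouse, rose by 1.36 ± 0.28 (adjusted p = 0.00598), or 2.57-fold. Htra1, a secreted serine protease, rose by 1.36 ± 0.23 (adjusted p = 0.000791), with P2 arrays between 11.34 and 11.51 against 9.41 to 10.85 at E16.

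Plekha2, an adaptor that binds membrane phosphoinositides, rose by 1.34 ± 0.21 (adjusted p = 0.000331), and Mir99ahg, the host transcript of a microRNA cluster, by 1.47 ± 0.30 (adjusted p = 0.00588). Both went from absent to present. Ncam2, a neural adhesion molecule, lay at 6.05, 7.08, 6.57 and 7.24 at E16 and at 9.01, 7.55, 9.90 and 9.76 at P2, a rise of 2.32 ± 0.65 (adjusted p = 0.0393). The groups of Ncam2 were separate by a small gap, and its call was lost in 5 of the 8 fits without 1 array. Of the 15 largest rises by the naming rule, 7 were called whichever single array was left out, and 10 each after quantile normalization and after scaling. The calls of Hoxc8, Trpm7, Slc7a12, Tecrl, Tspan8 and Wls, with rises between 1.29 and 1.81, were each lost in 2 to 6 of those fits. Trpm7, a channel joined to a kinase, had another probe set at -0.62, so that its probe sets disagree.

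**Figure D2:**
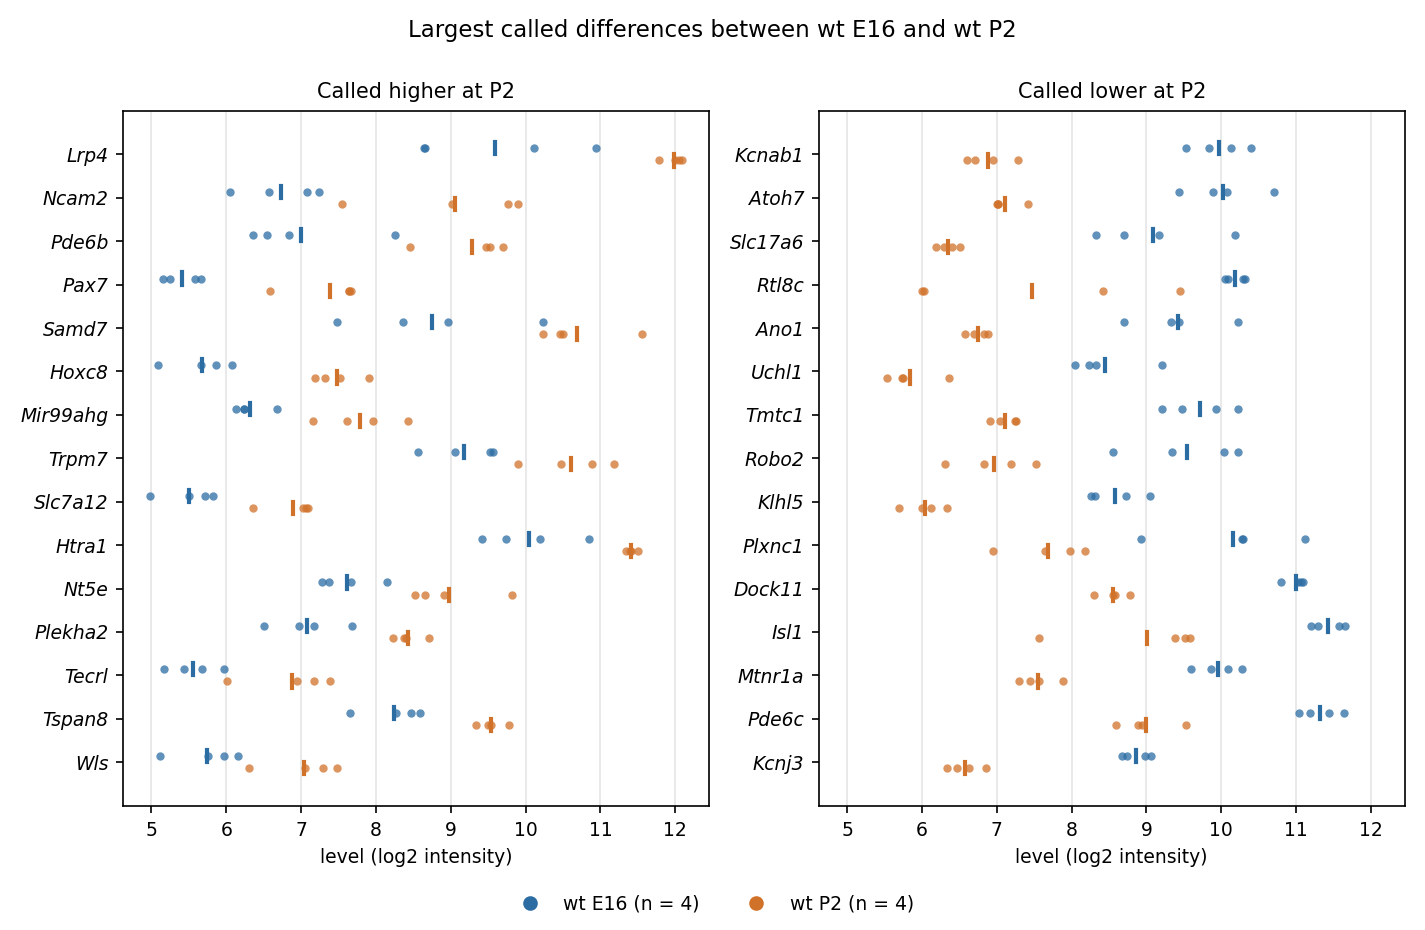
Levels (log2 intensity, horizontal axis) of the 15 genes with the largest called rises (left) and falls (right) whose arrays did not overlap. Each dot is 1 array, blue for wt E16 and orange for wt P2 (n = 4 each), and the bar is the group mean; Lrp4 and Samd7 are widely spread at E16, and Isl1 has 1 low P2 array at 7.57.

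In the same sorted cells 4 genes of cones fell. Of 17 measured cone genes, 4 were called lower and 0 higher, with a median of -0.26 (-0.11 after quantile normalization and -0.12 after scaling). Pde6c, the cone phosphodiesterase, lay at 11.44, 11.04, 11.63 and 11.18 at E16 and at 8.60, 8.94, 8.89 and 9.53 at P2. The gap between the groups of Pde6c was wide, and the fall of 2.33 ± 0.42 (adjusted p = 0.00141) was 5.04-fold. Gnat2, cone transducin, lay at 10.61, 10.75, 11.11 and 10.97 at E16 and at 8.94, 8.58, 8.54 and 9.41 at P2, and fell by 2.00 ± 0.38 (adjusted p = 0.00253). Cngb3, the cone channel's beta subunit, fell by 1.60 ± 0.33 (adjusted p = 0.00615), from 9.58 ± 0.25 to 7.98 ± 0.53. Sall3, a zinc finger factor known to promote cone gene expression in the mouse, fell by 2.12 ± 0.31 (adjusted p = 9.9e-05) and passed from present to absent. These 4 genes were called in each fit that left out 1 of the 8 arrays. A second probe set of Sall3, dim at both stages, differed by 0.04.

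Neither cone opsin passed the test. Opn1sw, the short-wavelength opsin, lay at 9.97, 10.24, 11.04 and 11.41 at E16 and at 10.004, 9.65, 9.11 and 10.81 at P2, overlapping, with a difference of -0.77 (adjusted p = 0.229). Opn1mw was called absent at both stages, so that no change could be read from it. The nuclear receptors Rxrg and Thrb, which set opsin choice in cones, differed by -0.42 and 0.30 without being called. In these pooled sorted cells, fewer cells of a type and less RNA per cell cannot be told apart.

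Among 18 regulators of photoreceptor fate, 2 were called lower and 0 higher. Besides Sall3, this was Prdm1, the repressor that keeps photoreceptor precursors from becoming bipolar cells, which went from 11.63 ± 0.07 to 11.03 ± 0.37 (a fall of 0.60 ± 0.15, adjusted p = 0.0175). Its call was lost in 4 of the 8 fits without 1 array and after both quantile normalization and scaling, which turned the list's median from -0.25 to 0.05 and 0.03. Rorb, which acts upstream of Nrl, differed by -0.49 (adjusted p = 0.373), and Neurod1, a bHLH factor of photoreceptors, by 0.19 (adjusted p = 0.179). Among genes called present at 1 or both stages, the median of the fate list was -0.34, as it was for all such genes.

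Among the larger falls were genes of neurons born before the rods. Atoh7, the bHLH factor required for ganglion cells, lay at 10.70, 9.88, 10.08 and 9.44 at E16 and at 7.01, 7.42, 7.01 and 7.01 at P2. Every P2 array of Atoh7 was more than 2 log2 units below the lowest E16 array, and the fall was 2.91 ± 0.36 (adjusted p = 7.36e-06), from present to absent. Slc17a6, the vesicular glutamate transporter of ganglion cells, lay at 10.18, 9.16, 8.70 and 8.33 at E16 and at 6.19, 6.30, 6.51 and 6.40 at P2, a fall of 2.74 ± 0.45 (adjusted p = 0.000508). Isl1, a LIM homeodomain factor of ganglion, amacrine and bipolar cells, lay at 11.57, 11.65, 11.29 and 11.20 at E16 and at 7.57, 9.38, 9.51 and 9.58 at P2. One P2 array was far below the other 3, and the fall of Isl1 was 2.42 ± 0.46 (adjusted p = 0.00253) with it and 1.94 (adjusted p = 0.0229) without it.

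Among 22 measured amacrine, horizontal and ganglion cell markers, 6 were called lower and 0 higher, and 6 were called in every fit that left out 1 array. The median of the list was -0.20 (-0.28 after scaling). Beside Slc17a6 and Isl1 these were Ebf3, a helix-loop-helix factor, with a fall of 2.12 ± 0.36 (adjusted p = 0.000626), the neurofilament chains Nefl and Nefm, and Gap43, a growth cone protein. Slc17a6, Nefl, Nefm and Gap43 are typical of neurons with long axons, as ganglion cells are. Genes of amacrine cells differed in both directions without passing, with 0.74 for Gad1, 0.24 for Tfap2a, -0.10 for Tfap2b and -1.18 for Gad2. Pou4f1, a ganglion cell factor, differed by -0.73 and Prox1, a horizontal cell factor, by -0.35, also without passing.

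Genes of growing neurites were mostly lower at P2. Of 27 immature neuron genes 9 were called lower and 0 higher, 25 had a difference below 0, and the median was -0.75 (-0.54 after quantile normalization and -0.47 after scaling). Nefl lay at 10.66, 10.53, 10.34 and 9.96 at E16 and at 7.86, 8.80, 8.89 and 8.12 at P2, a fall of 1.95 ± 0.27 (adjusted p = 3.72e-05). Gap43 lay at 9.47, 9.08, 8.74 and 8.35 at E16 and at 7.22, 7.47, 7.48 and 7.38 at P2, a fall of 1.52 ± 0.16 (adjusted p = 4.06e-07). Neither gene's groups overlapped. Stmn2, a microtubule regulator of growth cones, fell by 1.37 ± 0.23 (adjusted p = 0.000705), and Nefm, Elavl4, Tubb3, Dcx, Crmp1 and Stmn4 fell by 0.72 to 1.91, with Stmn4 called absent at both stages. Stmn1, Tuba1a, Dpysl3 and Basp1, brighter genes of the same list, differed by -0.25 to -0.09. Without wt E16 replicate 1, or without wt P2 replicate 1, 6 genes of this list were called.

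Guidance and excitability genes were among the largest falls as well. Robo2, a receptor of Slit proteins, lay at 10.22, 10.03, 9.35 and 8.56 at E16 and at 6.30, 7.19, 7.53 and 6.83 at P2, a fall of 2.58 ± 0.44 (adjusted p = 0.000705), or 5.97-fold. Its relative Robo1 differed by 0.63 (adjusted p = 0.207). Plxnc1, a semaphorin receptor, fell by 2.47 ± 0.49 (adjusted p = 0.0034), and Kcnab1, a potassium channel beta subunit, by 3.08 ± 0.54 (adjusted p = 0.00109), or 8.48-fold. Kcnj3, an inward rectifier channel, fell by 2.29 ± 0.30 (adjusted p = 2.28e-05), and Ano1, a calcium-activated chloride channel, by 2.68 ± 0.39 (adjusted p = 7.82e-05). Mtnr1a, a melatonin receptor, lay between 9.59 and 10.28 at E16 and between 7.30 and 7.88 at P2, a fall of 2.41 ± 0.30 (adjusted p = 7.36e-06). Tmtc1, an enzyme of protein mannosylation, fell by 2.60 ± 0.22 (adjusted p = 4.89e-09), Klhl5 by 2.54 ± 0.40 and Dock11, an activator of Cdc42, by 2.44 ± 0.40.

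Of the 15 largest falls, 13 were called whichever single array was left out, and 14 each after quantile normalization and after scaling. The exceptions were Uchl1, a neuronal ubiquitin hydrolase that was not called without wt E16 replicate 1 (adjusted p = 0.0863), and Rtl8c. Rtl8c lay at 9.45, 6.002, 8.42 and 6.03 at P2 against 10.05 to 10.31 at E16, so that its P2 arrays disagreed by more than 3 log2 units. Dimmer probe sets of Kcnab1, Atoh7, Slc17a6, Ano1, Tmtc1 and Klhl5 differed by -0.28 to 0.02 and were not called. Of 29 genes of axon guidance and adhesion, 3 were called lower (Robo2, Cntn1 and Cdh4) and 0 higher, with a median of -0.06. The call of Cdh4 was lost after quantile normalization (-0.04), after scaling (-0.36) and with probe sets averaged. Dimmer probe sets of Cdh4 differed by -0.08 and 0.25.

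**Figure D3:**
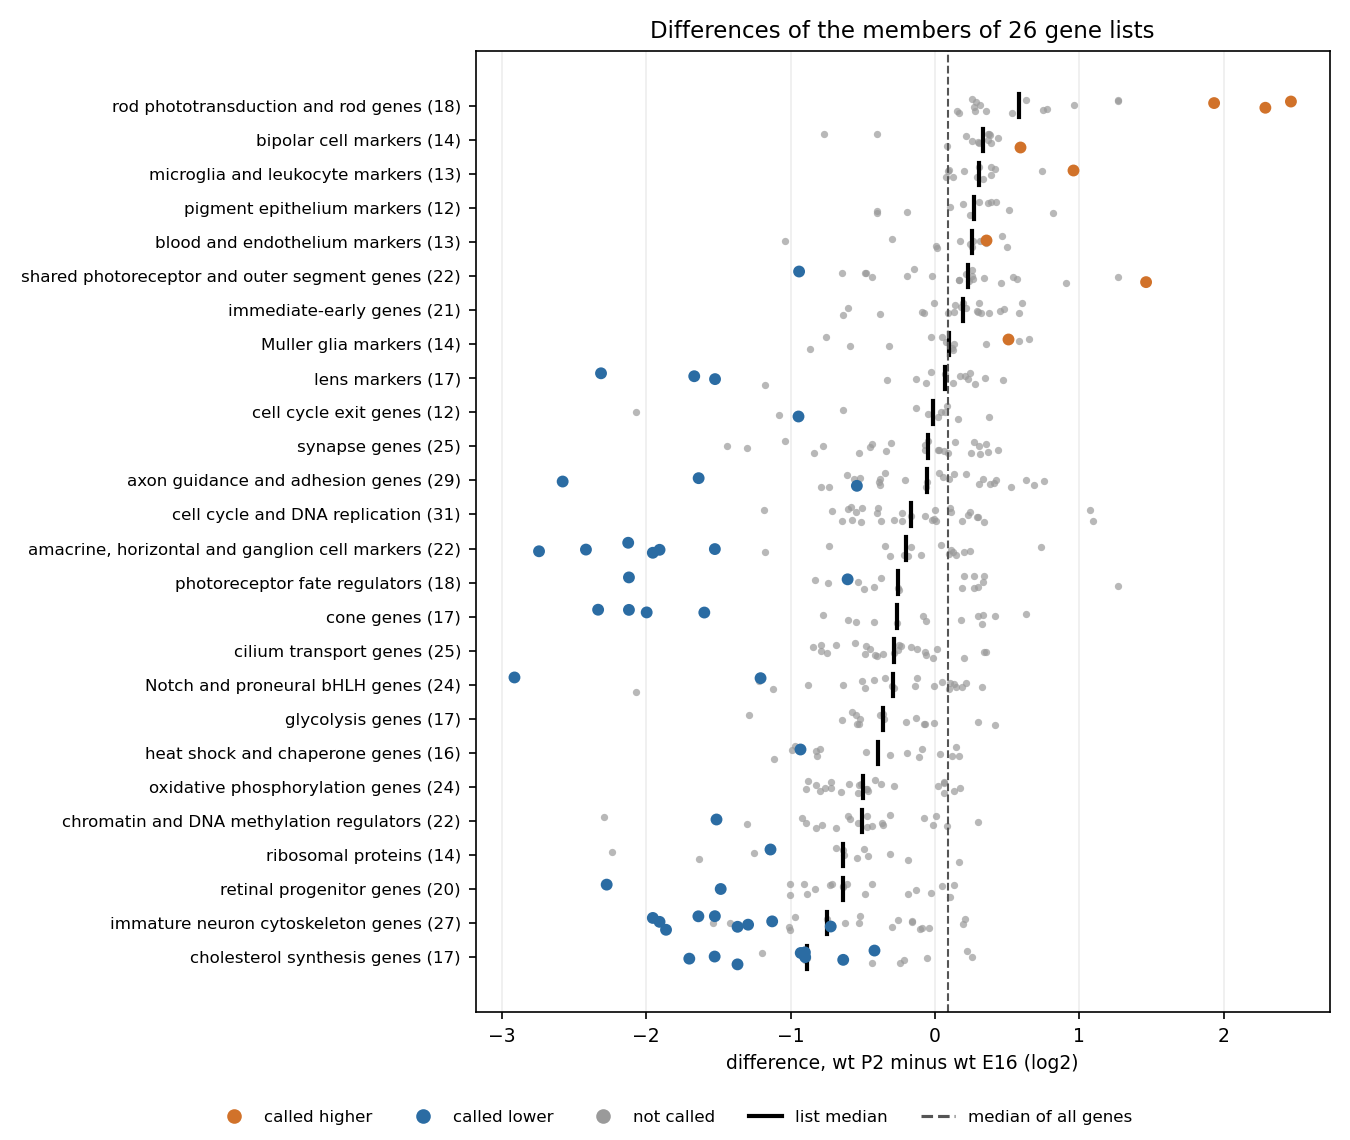
Differences between wt P2 and wt E16 (log2, horizontal axis) for the measured members of 26 gene lists, with the number of members in brackets. Orange and blue dots were called higher and lower, grey dots were not called, black bars are list medians and the dashed line is the median of all genes (0.09). Over the 9139 genes called present at 1 or both stages that median was -0.34. In these deposited values, rod genes lie highest with a median of 0.58, and immature neuron and cholesterol synthesis genes lowest with -0.75 and -0.88.

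Progenitor genes had a low median with few calls, and genes of cell division had none. Of 20 progenitor genes 2 were called lower and 0 higher, with a median of -0.64 (-0.31 after scaling, and -0.26 without wt P2 replicate 1). Fgf15, a growth factor of the dividing retina, lay at 10.72, 8.97, 10.03 and 9.49 at E16 and at 6.59, 8.66, 7.56 and 7.32 at P2, a fall of 2.27 ± 0.36 (adjusted p = 0.000272). The groups of Fgf15 did not overlap, and the lowest P2 array was replicate 1. Six3, an eye-field homeodomain factor, fell by 1.48 ± 0.39 (adjusted p = 0.0305), a call lost in 4 of the 8 fits without 1 array. Of 31 genes of the cell cycle and DNA replication 0 were called in limma (8 at an unadjusted p under 0.05), with a median of -0.17. Mki67 lay at 10.03, 9.003, 9.59 and 9.52 at E16 and at 8.50, 9.47, 10.05 and 8.07 at P2 (adjusted p = 0.433), and Rrm2 differed by -0.02, a sign that turned under 8 of the alternatives. Both genes were called present at both ages, as were Ccnd1 and Pcna. Without wt E16 replicate 2, 3 genes of this list were called.

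Among 12 genes of cell cycle exit, Cdkn1c, an inhibitor of cyclin-dependent kinases in newborn neurons, fell by 0.95 ± 0.12 (adjusted p = 1.01e-05) from present to absent, and it was called whichever array was left out. Cdkn1b, the inhibitor that acts widely in retinal precursors, differed by -0.13 (adjusted p = 0.69). Of 24 genes of the Notch pathway and the proneural bHLH factors, Atoh7 and Hey1, a Notch target, were called lower and 0 higher. Hey1 fell by 1.21 ± 0.31 (adjusted p = 0.0263), a call lost in 5 of the 8 fits. Neurog2, a proneural factor of dividing precursors, differed by -1.22 (adjusted p = 0.0903), and Notch1 and Hes5 by -0.30 and -0.48.

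In the deposited values, the enzymes of cholesterol synthesis had the lowest median of the 26 lists. Of 17 measured genes 8 were called lower and 0 higher, 15 had a difference below 0, and the median was -0.88 (-0.51 after quantile normalization and -0.41 after scaling). After both of these changes the median of the immature neuron list was lower than that of this list. Along the pathway, the called genes ran from Hmgcs1, which makes the precursor of mevalonate, and Mvd, through the squalene steps Fdft1 and Sqle, to Lss, Cyp51, Msmo1 and Nsdhl, which close and trim the sterol ring. Hmgcs1 lay at 13.13, 13.20, 12.99 and 12.99 at E16 and at 12.31, 12.07, 12.25 and 12.09 at P2, a fall of 0.90 ± 0.25 (adjusted p = 0.0412). Cyp51 lay at 10.11, 9.90, 10.02 and 9.90 at E16 and at 8.66, 8.54, 8.83 and 8.44 at P2, a fall of 1.37 ± 0.30 (adjusted p = 0.0102). The groups of both genes were tight and far apart. Sqle, squalene epoxidase, lay at 9.31, 8.49, 9.02 and 8.83 at E16 and at 6.62, 7.48, 7.68 and 7.06 at P2, a fall of 1.70 ± 0.39 (adjusted p = 0.0136).

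Lss, Fdft1 and Nsdhl fell by 1.53 (adjusted p = 0.027), 0.90 (adjusted p = 0.000471) and 0.93 (adjusted p = 0.00701). Mvd fell by 0.42 (adjusted p = 0.0479) and was called absent at both stages. Fdft1 was called in all 8 fits without 1 array, while the call of Hmgcs1 was lost in all 8. The list held between 2 and 7 called genes in those fits, with 2 when wt E16 replicate 1 was left out and 3 when wt P2 replicate 1 was. The summed signal of the list was between 21271 and 24079 (linear intensity) at E16 and between 13772 and 14693 at P2. Srebf2, the transcription factor of the pathway, differed by -0.44 (adjusted p = 0.0944) and Insig1, its brake, by -0.05 (adjusted p = 0.911). Among the genes singled out after their values were seen, Scd1, a fatty acid desaturase, fell by 1.78 ± 0.25 (adjusted p = 5.99e-05) and Stard4, a carrier of cholesterol, by 1.42 ± 0.23 (adjusted p = 0.00038).

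The start regions of Hmgcs1 and Cyp51 are shown because most windows of this list hold the same short word. Capitals mark CCAAT, the box bound by factor NF-Y, and TCACNCCAC, a sterol element of the kind that Srebf2 binds, both searched on the 2 strands as above. Hmgcs1 lies at chr13:119690101-119690350 on the plus strand and Cyp51 at chr5:4104698-4104947 on the minus strand.
Hmgcs1: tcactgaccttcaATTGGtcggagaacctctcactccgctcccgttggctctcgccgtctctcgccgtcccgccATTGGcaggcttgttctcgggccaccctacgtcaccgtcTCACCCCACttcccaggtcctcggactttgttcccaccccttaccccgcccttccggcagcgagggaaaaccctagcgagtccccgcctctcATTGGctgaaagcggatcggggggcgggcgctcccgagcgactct
Cyp51: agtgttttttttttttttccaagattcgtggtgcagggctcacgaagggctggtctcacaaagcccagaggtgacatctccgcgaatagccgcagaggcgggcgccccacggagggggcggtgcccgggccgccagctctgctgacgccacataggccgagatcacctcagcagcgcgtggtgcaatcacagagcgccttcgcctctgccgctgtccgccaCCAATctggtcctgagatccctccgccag
The window of Hmgcs1 held 3 CCAAT boxes on the opposite strand, which began 237, 176 and 45 bases before the start, and the sterol element 137 bases before it. That of Cyp51 held 1 box, 29 bases before the start. CCAAT was in 14 of 17 windows of the list (82.4%) and in all 6 windows of its called genes, against 33.8% of all windows, 31.7% of those of genes called lower and 31.6% of those of genes called higher. The sterol element with these letters was in 1 window of the list, that of Hmgcs1, and in 1.05% of all windows. Sqle and Fdft1 had no window of this kind in the table used.

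Genes of energy supply and protein synthesis had medians below that of all genes with few calls. Of 24 genes of oxidative phosphorylation and 17 of glycolysis 0 were called in limma (5 each at an unadjusted p under 0.05), with medians of -0.49 and -0.36 that were -0.22 and -0.14 after scaling. Cox4i1, a subunit of cytochrome oxidase, differed by -0.90 (adjusted p = 0.0894) and Tpi1, a glycolytic isomerase, by -1.29 (adjusted p = 0.0778). Of 14 ribosomal protein genes Rps6 was called lower, with a fall of 1.14 ± 0.23 (adjusted p = 0.00377). The call of Rps6 was lost with probe sets averaged and with the replicate block, and its dimmer probe set differed by 0.31. The oxidative phosphorylation, glycolysis and ribosomal lists are bright, and the median of the brightest of the 4 level groups was -0.44. Of 16 chaperone genes Hspd1 fell, by 0.94 ± 0.27 (adjusted p = 0.0454), a call lost in 6 of the 8 fits. Of 22 chromatin regulators Dnmt3b, a DNA methyltransferase, fell by 1.51 ± 0.34 (adjusted p = 0.0113), with E16 arrays of 8.43, 7.83, 7.82 and 7.82 and P2 arrays of 5.82, 6.93, 6.80 and 6.30. Tet1, an enzyme that oxidises methylated cytosine, differed by -2.29 without passing (adjusted p = 0.0574). Of 25 synapse genes and 21 immediate-early genes 0 were called in limma (5 and 3 at an unadjusted p under 0.05). The ribbon synapse genes Erc2 and Pclo differed by -1.44 and -1.30 (adjusted p = 0.068 and 0.0622).

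Markers of cells outside the neural retina were mostly at background, with some lens and globin genes as exceptions. Of 13 blood and endothelium markers and 13 microglia markers 1 each was called present at each stage, and of 12 pigment epithelium markers 4 at E16 and 2 at P2. Hba-a1 and Laptm5 were called higher, but both were called absent at both stages. Hba-a2, an alpha globin present at both stages, differed by -1.04 (adjusted p = 0.134). Hbb-b2, a beta globin outside the list and singled out after its values were seen, fell by 1.73 (adjusted p = 0.00491) from 9.82, and the part of blood transcripts in the other differences was not tested. Of 17 lens markers 3 were called lower: Cryba1, Crygb and Cryga. Cryba1 lay at 5.72, 9.96, 9.23 and 8.62 at E16 and at 6.15, 6.11, 5.89 and 6.12 at P2. One E16 array was at the P2 level and the other 3 were far above it, and the fall of Cryba1 was 2.31 ± 0.46 (adjusted p = 0.00377) with that array and 3.20 without it. Crygb and Cryga showed the same array apart, at 5.36 and 5.41 against 7.44 to 8.09 in the other 3. The summed signal of the lens list ranged from 1812 to 4057 at E16 and from 2344 to 2708 at P2. Cryaa, the main lens chaperone, was called absent at both stages, at 7.19 and 7.43. The part of lens transcripts in the other differences was not tested.

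Bipolar cells and Müller glia form late. Of the bipolar markers 4 were called present at E16 and 6 at P2, and of the Müller glia markers 8 at each stage. Of 14 bipolar markers Grik1 was called higher, by 0.59, and of 14 Müller glia markers Slc1a3, by 0.51. Both were called absent at both stages, and both calls were lost in 6 of the 8 fits without 1 array and after quantile normalization and scaling. Another probe set of Slc1a3, of similar level, differed by -0.41, and its dimmer probe sets by 0.03 to 0.43, so that its probe sets disagree.

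The same step was measured in ko cells, where GFP marks cone-like precursors, and the difference between the steps was tested directly. In ko, 182 genes (1%) were called, 46 higher and 136 lower. Of the genes called lower, 64 were shared, 12.3% of those in wt and 47.1% of those in ko, and of the genes called higher 8 were shared, 4% and 17.4%. No gene was called in opposite directions. The steps differed in 18 genes (0.0989%), with the wt step below the ko step in 16 of them (0.0879%) and above it in 2 (0.011%). Pax7 was one of the other 2: in ko it went from 5.55 ± 0.55 to 5.73 ± 0.18, and the wt step exceeded the ko step by 1.79 ± 0.36 (adjusted p = 0.0241). The balance of directions did not hold without ko E16 replicate 3, whose values spread least of all 39 arrays (SD over probe sets 1.34). In that fit 39 genes differed, 20 with the wt step above the ko step and 19 with it below.

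Among the 10 genes with the smallest p, most fell in wt or rose in ko. Mtnr1a, which fell by 2.41 in wt, lay at 9.65, 8.99 and 8.31 at ko E16 and at 9.80, 9.77, 9.17 and 8.56 at ko P2, and the steps differed by -2.75 ± 0.44 (adjusted p = 0.00177). Vcan, a matrix proteoglycan, fell by 2.02 ± 0.25 in wt, from 8.96 to 6.93, and lay at 6.39 and 6.34 in ko. Other probe sets of Vcan, dim at both stages, were not called. Acaa1b, a peroxisomal thiolase, fell by 2.05 in wt and differed by 0.09 in ko. Lmo2, a LIM-only protein, differed by 0.10 in wt and rose by 2.11 in ko, from 7.70, 7.37 and 7.93 to 10.03, 9.90, 9.77 and 9.39. Moxd1, a copper monooxygenase, differed by -0.38 in wt and rose by 2.93 in ko. Stx3, the syntaxin of ribbon synapses, differed by 0.03 in wt and rose by 1.49 in ko.

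Several genes of early-born neurons fell in both genotypes. Atoh7 fell by 2.63 in ko and Slc17a6 by 2.83, and the steps differed by -0.28 ± 0.53 and 0.09 ± 0.66. For Nefm, which fell in wt, the ko step was -0.28 and the steps differed (by -1.63 ± 0.34, adjusted p = 0.0423). Nefm was called absent at both ko stages, at 5.57 and 5.29, where wt went from 7.39 to 5.49. The ko step was 0.24 for Pde6c and 0.47 for Gnat2, neither called, and the difference of steps did not pass (-2.58 ± 0.62, adjusted p = 0.114, and -2.47 ± 0.56, adjusted p = 0.0768). The difference of steps did not pass for Pde6b either (2.07 ± 0.45, adjusted p = 0.0554). Among other genes called higher in wt, the ko step was 1.40 for Sag, 1.43 for Rp1, 1.93 for Lrp4, 1.59 for Nt5e and 2.49 for Htra1. It was smaller for Pde6b (0.22), Samd7 (0.71), Plekha2 (0.27), Mir99ahg (0.60) and Ncam2 (0.96). Opn1sw rose by 2.72 in ko (adjusted p = 0.00932), and its steps differed by -3.49 ± 0.76, which did not pass (adjusted p = 0.0543). Sall3 had a ko step of -0.82 (adjusted p = 0.283). The median ko step of the cholesterol list was -0.28.

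**Figure D4:**
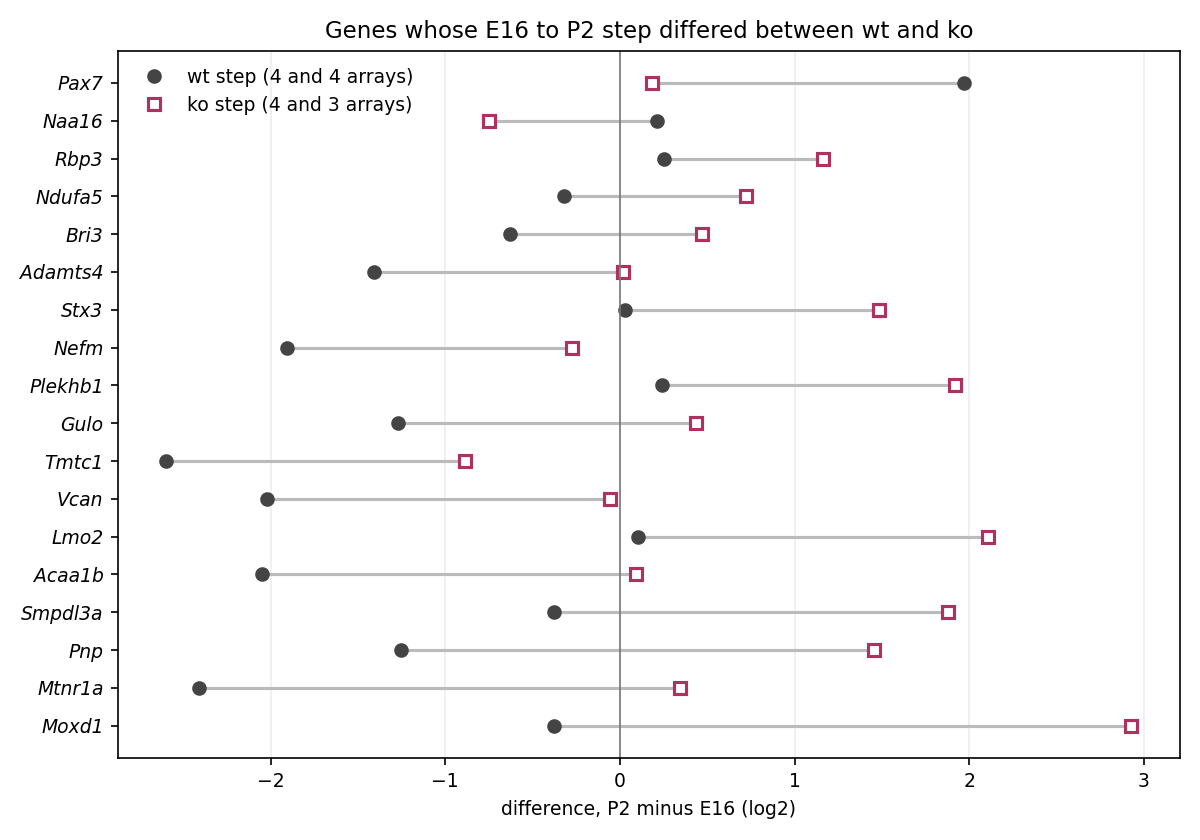
Difference between P2 and E16 (log2, horizontal axis) in wt (filled circles, 4 and 4 arrays) and in ko (open squares, 4 and 3 arrays) for the 18 genes whose steps differed. The wt step is below the ko step in 16 genes and above it in Pax7 and Naa16.

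The levels at later wt stages place the step within the course of the rod. From P2 to P6, a comparison that shares the wt P2 arrays, 27 genes (0.148%) were called, 25 higher and 2 lower. Pde6b rose again by 2.19 (adjusted p = 0.000408) to 11.48 ± 0.38, and Rp1 by 1.83 (adjusted p = 0.0116). Pax7 rose by 1.10 (adjusted p = 0.0479) to 8.49 ± 0.46 at P6 and lay at 5.41 ± 0.10 at 4 weeks, where it had been at 5.41 ± 0.25 at E16. Isl1, which fell from E16 to P2, rose by 2.88 to P6 (adjusted p = 0.00233), where it lay at 11.89 ± 0.21. Sag lay at 11.59 ± 0.67 at P6 and 13.39 ± 0.10 at 4 weeks. At P6 Pde6c lay at 9.16 ± 0.48 and Sall3 at 5.66 ± 0.22. Atoh7 and Slc17a6 lay at 6.41 ± 0.10 and 6.04 ± 0.63 at P6, and Hmgcs1 and Cyp51 at 11.35 ± 0.75 and 8.11 ± 0.42.

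**Figure D5:**
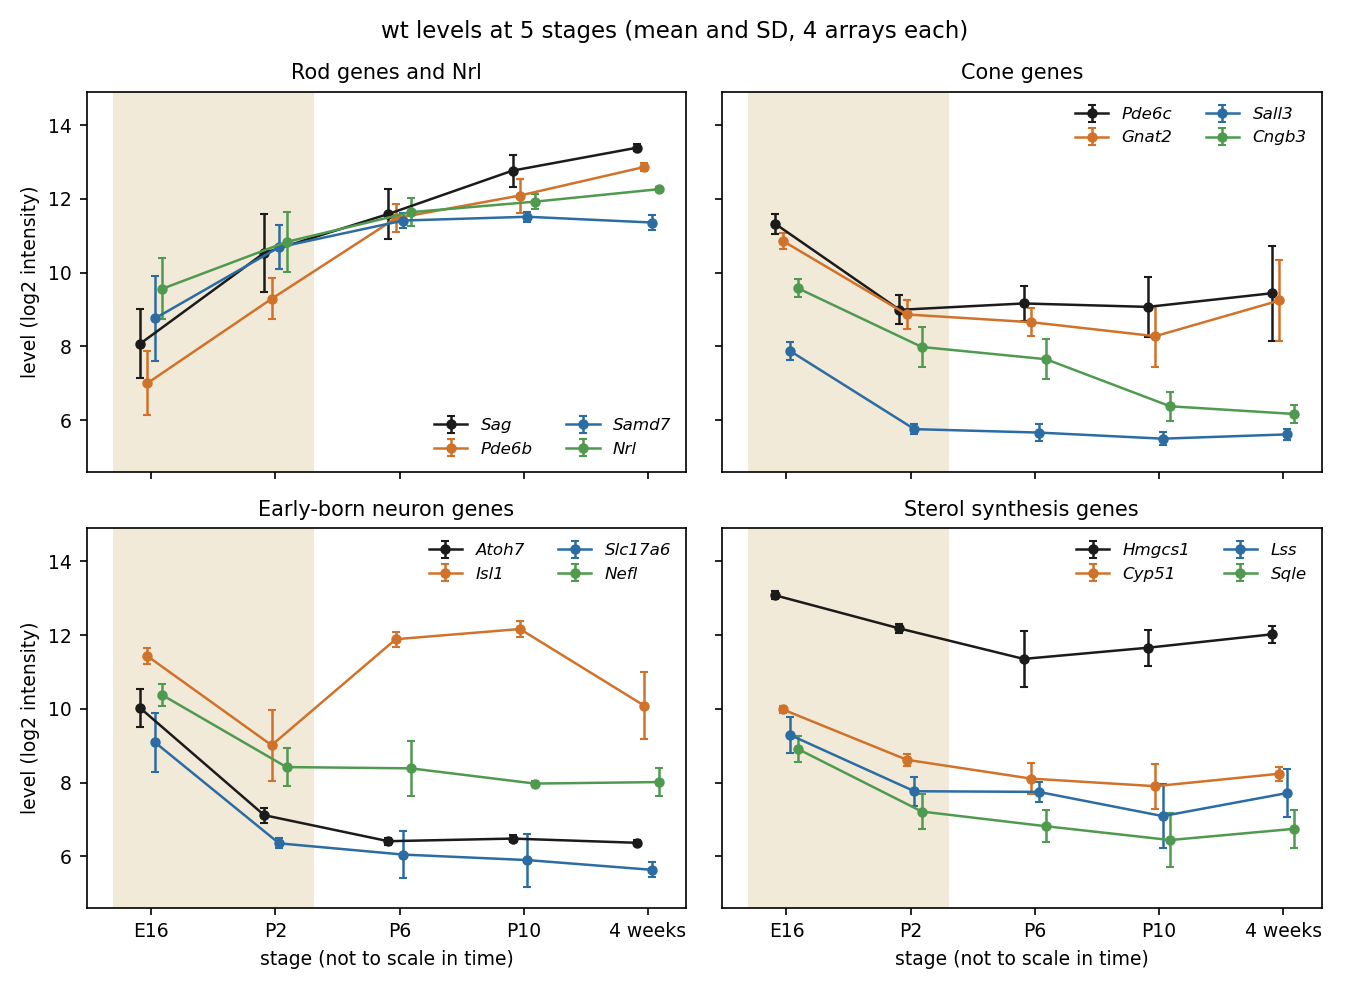
Mean levels with SD (log2 intensity, vertical axis) at 5 wt stages, 4 arrays each, for 4 rod genes, 4 cone genes, 4 genes of early-born neurons and 4 of sterol synthesis; the shaded span marks E16 to P2. Rod genes go on upward after P2, Isl1 returns to 11.89 at P6, and Atoh7 stays low at 6.41.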

How the data were processed

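Per the labels, GFP-positive cells were sorted, and RNA was amplified and labelled with the Nugene kit. The deposited values are on the log2 scale, and the submitters' processing notes name RMA, without version or settings. The authors also deposited a detection call (present or absent, a unit of its own) per probe set and stage. How replicates were combined in it is not given in the sources used here.

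Of 45101 probe sets, 34945 pair with exactly 1 gene in the platform annotation; the brightest over 39 arrays stood for each of 18193 genes. No value was floored, filtered or renormalized. In limma 3.58.1 (R 4.3.3), all 39 arrays shared a linear model with 1 mean per group and empirical Bayes variances, and adjusted p-values are Benjamini-Hochberg over all genes. It was checked on simulated arrays whose noise was independent between genes and arrays. Such a check cannot show how a shift shared by many genes of an array affects the calls. The number of arrays limits the precision.

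Named genes were the 15 largest called rises and falls without overlap of arrays, up to 6 called members of each of 26 lists by size of difference (482 of 528 distinct genes measured) or, with none called, the 2 with the largest difference, then Nrl, Crx, Otx2, Opn1sw, Gnat2, Mki67 and Rrm2, and the 10 smallest p-values of the difference between the wt and ko steps, passing over unnamed clones and predicted models. Other list members, and genes said to be singled out, were picked with their values in view. Members and lists were chosen with earlier results of these data known. Alternatives changed the samples, the normalization, the probe set rule, a filter on detection calls and the variance model. Promoter windows came from a RefSeq table.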

Additional observations from a re-analysis of the deposited data

Results flagged for a closer look

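Single arrays stood far from the other 3 of their group in 15 of 240 groups examined (6.25%), where chance alone gives about 1 in 20. In wt P2 replicate 1, Isl1 lay at 7.57 against 9.38 to 9.58 in the other 3, Elavl4 at 6.41 against 7.50 to 7.70, Lss at 7.18 against 7.91 to 7.99, and the mean of the amacrine, horizontal and ganglion cell list at 7.13 against 7.80 to 7.89. Lmo2 was high in the same array, at 8.80 against 7.83 to 7.99. In wt E16 replicate 1, Crygb lay at 5.36 against 7.44 to 7.85, Dnmt3b at 8.43 against 7.82 to 7.83, and the mean of the chaperone list at 9.76 against 9.56 to 9.59. In wt E16 replicate 4, Sag lay at 9.46 against 7.48 to 7.79. The remaining single arrays were Pax7 at 6.59 in wt P2 replicate 4, Slc7a12 at 6.36 and Atoh7 at 7.42 in wt P2 replicate 2, Cryba1 at 5.89 in wt P2 replicate 3, Prdm1 at 11.73 in wt E16 replicate 3 and Hba-a1 at 5.50 in wt E16 replicate 2.

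The E16 to P2 step differed between wt and ko in 18 genes by the test of the difference itself. The wt step minus the ko step was -3.31 for Moxd1, -2.75 for Mtnr1a, -2.71 for Pnp, -2.26 for Smpdl3a, -2.14 for Acaa1b and -2.005 for Lmo2. It was -1.97 for Vcan, -1.71 for Tmtc1, -1.71 for Gulo, -1.68 for Plekhb1, -1.63 for Nefm, -1.46 for Stx3 and -1.42 for Adamts4. It was -1.10 for Bri3, -1.04 for Ndufa5 and -0.91 for Rbp3, and above 0 for Pax7 (1.79) and Naa16 (0.96). Pnp, a purine enzyme, fell by 1.25 in wt (adjusted p = 0.0479) and differed by 1.45 in ko (adjusted p = 0.0673). Rbp3, the retinoid carrier between photoreceptors and pigment epithelium, rose by 1.16 in ko and differed by 0.25 in wt.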

How the results depend on the processing

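The number of genes called between wt E16 and wt P2 (722) moved by more than 1.5 times under most changes of the samples or the normalization. It was 7017 with the 8 arrays alone (700 of the 722 among them), 8041 without 6 arrays (ko 4 weeks replicate 2 and the 5 whose values spread least), and 9724 with array weights, a fit that did not converge, and 55.6%, 56.7% and 57.3% of those calls were higher. It was 403 after quantile normalization, 449 after scaling, 4176 (65.4% higher) with the 8 arrays quantile normalized together (added after seeing the data), and 128 to 1485 with 1 array left out. With the replicate block in the 8 arrays it was 2328, of which 23.6% were higher. With the present-call filter 727 of 9139 genes were called, 96 higher and 631 lower, and 556 of them were among the 722. The 18 genes whose steps differed became 3 with the 15 arrays of these stages alone, 130 without the 6 arrays, 2778 with array weights, 1 with the replicate block, and 8 to 50 with 1 array left out. The 27 genes from P2 to P6 (alternatives added after seeing the data) became 16 with 8 arrays alone, 41 without ko 4 weeks replicate 2, 297 without the 6 arrays, 65 after quantile normalization, 10 with probe sets averaged, 0 with the replicate block (1613 at an unadjusted p under 0.05) and 12 to 28 with 1 array left out. The 48 list members called became 170 with the 8 arrays alone, 194 without the 6, 238 with array weights, 121 with the 8 quantile normalized together, 79 with the replicate block and 31 to 63 with 1 array left out. Residuals of same-numbered arrays correlated at -0.37, -0.45, 0.22 and 0.22, and 2 of 4 correlated best with their own number. Whether same-numbered arrays shared a preparation is not in the labels, and so few correlations cannot settle it. The block is therefore not read as a pairing. The Actb difference was between -0.54 and -0.39 with 1 array left out, and the sign turned with Gapdh (0.84). Among named genes the sign turned for Mcm6 with probe sets averaged (-0.47), Crx after scaling (0.17), Lmo2 (-0.12 to 0.21 with 1 array left out), Stx3 (-0.0731 to 0.0928 with 1 array left out and -0.0477 with array weights) and Rrm2 (-0.26 to 0.26 with 1 array left out, 0.20 after quantile normalization, 0.40 after scaling, 0.0362 with probe sets averaged, 0.0928 with array weights and 0.19 with the 8 arrays quantile normalized together). For the named genes, 1529 repeats kept direction and side of the threshold, 165 lost the call, 68 gained it and 15 turned sign. Dim genes limit what can be said of rises: of the 200 genes called higher, 130 were called absent at both stages. So were 9054 of all 18193 genes and 36 of the 522 called lower. The cause of these changes was not tested.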

Other observations

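Genes outside the lists, singled out after their values were seen, included further factors and proteins of other neurons. Ebf1, a relative of Ebf3, fell by 1.60 ± 0.29 (adjusted p = 0.00141) and Ina, the neurofilament partner internexin, by 1.97 ± 0.32 (adjusted p = 0.000508). Nptx1, a synaptic pentraxin, fell by 2.13 ± 0.36 (adjusted p = 0.000618) and Islr2, a membrane protein of axon growth, by 1.74 ± 0.24 (adjusted p = 5.66e-05). Fezf2, a zinc finger factor of forebrain projection neurons, fell by 1.28 ± 0.25 (adjusted p = 0.00327), and Slc18a2, the vesicular monoamine transporter, by 1.31 ± 0.18 (adjusted p = 5.99e-05). Eomes, a T-box factor of ganglion cells, was dim and fell by 0.56 ± 0.11 (adjusted p = 0.00374). Lhx4, a LIM homeodomain factor expressed in cones and bipolar cells, went from 12.21 ± 0.18 to 10.83 ± 0.10, a fall of 1.39 ± 0.28 (adjusted p = 0.00417).

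Outside the neural retina, a further crystallin gene, Crygf, fell by 2.43 ± 0.53 (adjusted p = 0.00859), with an SD of 1.92 at E16.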
